A study of Mus musculus with 12 samples.

Results

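The annexins are a family of calcium-regulated membrane proteins, and the 9 described here are Anxa1, Anxa2, Anxa3, Anxa4, Anxa5, Anxa6, Anxa7, Anxa8 and Anxa11, taken by exact gene symbol from the 21936 genes listed in any library. All 9 were found, each once. The study sequenced polyadenylated RNA from skeletal muscle of C57BL/6N mice aged 3 months, either wild type (labelled normal) or PTRF knockout (labelled as having muscular dystrophy). PTRF is the caveolar coat protein cavin 1, encoded by Cavin1, and the labels do not say how its gene was deleted or in which cells. The labels give 12 samples, 3 for each genotype in soleus and in quadriceps, but the soleus and quadriceps samples of the same genotype and number held identical values (largest difference 0 TPM), so there were 6 libraries, 3 wild type and 3 knockout. Mouse soleus is rich in slow fibres, which express Myh7, and mouse quadriceps in the fastest fibres, which express Myh4. The level of Myh7 was 2175, 1702 and 2703 TPM in the wild type and 3186, 2196 and 3291 TPM in the knockout. That of Myh4 was 6.43, 194 and 4.21 TPM in the wild type and 238, 580 and 346 TPM in the knockout, far below Myh7 in every library. No label ties the numbered samples to separate animals, so p-values measure the spread between these libraries, which may be technical.

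An annexin has a conserved core of repeats that binds phospholipids when calcium rises, and an amino-terminal arm that differs between members and carries the binding sites for partner proteins. In muscle fibres annexins move to a torn sarcolemma within moments of calcium entry and build a cap of proteins and lipid over the wound, together with dysferlin and other repair proteins. Annexins are also abundant in fibroblasts, endothelial cells and leukocytes, where they act in secretion, membrane traffic and the ending of inflammation.

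Transcript levels of 8 of the 9 annexins were higher in the knockout, and the other, Anxa8, was too low to be tested on the deposited scale. Levels were read as TPM, the share of a transcript in its library after division by transcript length, which can be compared between genes. No header names the unit, so comparisons between genes rest on that reading. Of the 9 annexins, 8 passed the filter of at least 1 TPM in at least 3 libraries, all 8 through both genotypes, and all 8 were higher in the knockout (limma, Benjamini-Hochberg adjusted p under 0.05 over all 11056 genes tested), against 36.3% of all genes tested. None was lower, against 2.92% of all genes. In bulk tissue, more or fewer cells of a type and more or less RNA per cell cannot be told apart. The median log2 fold change of the 8 was 1.27, beside 0.33 for all genes tested, and 5 of the 8 passed with a log2 fold change of at least 1, against 7.79% of all genes. Fold changes are given as differences of log2(TPM + 1). After trimmed-mean rescaling of the libraries, which moved the median of all genes by -0.33, 6 of the 8 remained higher and 1.67 was the largest log2 fold change (Anxa2), while Anxa6 and Anxa3 did not pass. On that scale 14.3% of all genes were higher and 13.3% lower. On a scale of nuclear genes alone, and after quantile normalization, 7 annexins were higher and none lower, where all genes gave 23.5% higher and 6.4% lower on the nuclear scale and 12.4% higher and 13.1% lower after quantile normalization. Anxa8 passed the filter on the trimmed-mean and nuclear scales, so 9 annexins were tested there. It was not called on either (limma adjusted p = 0.45 and 0.25).

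The promoters of the 3 annexins with the largest changes are shown because these are the stretches where any shared sequence would be sought. They are the RefSeq windows in GRCm38.p6, from 250 bases before to 50 bases after the start site, 5′ to 3′ on the coding strand: chr9:69453433-69453732 (plus strand) for Anxa2, chr19:20390622-20390921 (minus strand) for Anxa1 and chr6:86793535-86793834 (minus strand) for Anxa4. Capitals mark matches, on either strand, to the AP-1 motif TGANTCA, the GC box GGGCGG, the sequence CCAAT, the TATA box motif TATAAA, the GAS element TTCNNNGAA or the interferon-stimulated response element.
Anxa2: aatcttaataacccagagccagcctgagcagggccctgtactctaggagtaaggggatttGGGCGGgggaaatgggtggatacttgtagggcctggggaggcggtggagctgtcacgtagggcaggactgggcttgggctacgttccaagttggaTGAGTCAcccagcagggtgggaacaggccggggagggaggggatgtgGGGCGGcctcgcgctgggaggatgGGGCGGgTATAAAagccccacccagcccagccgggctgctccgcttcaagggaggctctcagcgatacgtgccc
Anxa1: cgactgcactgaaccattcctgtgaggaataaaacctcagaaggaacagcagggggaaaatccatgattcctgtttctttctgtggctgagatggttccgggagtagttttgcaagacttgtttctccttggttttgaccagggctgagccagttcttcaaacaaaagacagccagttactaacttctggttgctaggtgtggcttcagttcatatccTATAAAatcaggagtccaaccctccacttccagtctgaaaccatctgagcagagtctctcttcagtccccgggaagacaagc
Anxa4: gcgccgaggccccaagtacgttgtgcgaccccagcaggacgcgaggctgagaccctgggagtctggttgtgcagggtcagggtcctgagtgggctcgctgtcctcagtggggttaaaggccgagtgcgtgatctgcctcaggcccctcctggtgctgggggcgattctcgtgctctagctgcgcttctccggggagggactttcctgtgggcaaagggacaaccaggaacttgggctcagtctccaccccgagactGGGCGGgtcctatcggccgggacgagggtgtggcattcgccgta
The Anxa2 window held the AP-1 letters TGAGTCA at bases -95 to -89 (the start site counted as 0), GGGCGG 3 times and TATAAA at -17 to -12. The Anxa1 window held TATAAA at -32 to -27 and none of the other motifs, and the Anxa4 window held GGGCGG once, at 6 to 11. Of 32851 windows of this length in the RefSeq table, 7.81% held the AP-1 letters, 35.7% GGGCGG, 13.6% TATAAA, 37.4% CCAAT, 3.44% the interferon element and 8.30% the GAS letters. No motif searched was present in all 3 windows. The table held windows for 7 of the 9 annexins, and neither the interferon element nor the GAS letters occurred in the 7 windows nearest the annotated starts. The RefSeq start of Anxa1 lies 273 bases inside its GENCODE gene and that of Anxa2 lies 63 bases inside. The motif positions given are counted from the RefSeq starts. A match is a string of letters and not a bound site.

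Anxa2 and Anxa1 changed most. Anxa2 (ENSMUSG00000032231, chromosome 9 from 69453620 to 69491795 on the plus strand, GRCm38) forms a tetramer with S100a10 that links membranes to actin and binds plasminogen at the cell surface. Wild-type libraries 1, 2 and 3 held 23.5, 20.7 and 29.1 TPM of it, and knockout libraries 1, 2 and 3 held 99.95, 89.1 and 125 TPM. The lowest knockout library was above the highest wild-type library by a wide margin. The mean rose from 24.5 ± 4.28 to 105 ± 18.5 TPM (SD, n = 3 each), a ratio of 4.28, and the log2 fold change was 2.05 (SE 0.18, limma adjusted p = 1.01e-05), exceeded by 96 of the 11056 genes tested.

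Anxa1 (ENSMUSG00000024659, chromosome 19 from 20373428 to 20390944, minus strand) is induced by glucocorticoids, restrains leukocyte entry through formyl peptide receptors and is part of the repair cap. The wild-type libraries held 9.84, 9.19 and 11.8 TPM and the knockout libraries 40.2, 37.6 and 37.2 TPM, in the order of their numbers here and for the genes that follow. The 3 knockout values lay close together, with an SD of 1.65 TPM around a mean of 38.3 TPM. Against the wild-type mean of 10.3 ± 1.36 TPM this was a ratio of 3.73 and a log2 fold change of 1.81 (SE 0.14, adjusted p = 6.66e-06). In wild type Anxa1 was the lowest of the 8 tested annexins, below Anxa4 without overlap, while in the knockout its values overlapped those of Anxa3.

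Anxa4 and Anxa5 came next. Anxa4 (ENSMUSG00000029994, chromosome 6 from 86736840 to 86793584, minus strand) assembles on membranes and bends them. Its level was 20.3, 16.6 and 19.5 TPM in the wild type, against 84.7, 40.6 and 55.5 TPM in the knockout. Knockout library 1 stood far above the others for Anxa4, and the knockout SD of 22.5 TPM was the largest of any annexin. The log2 fold change of Anxa4 was 1.57 (SE 0.23, adjusted p = 0.00033) and ran from 1.30 to 1.82 when each library was left out in turn.

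Anxa5 (ENSMUSG00000027712, chromosome 3 from 36448923 to 36475894, minus strand) forms a two-dimensional lattice on exposed phosphatidylserine and is the protein used to stain dying cells. Its level was 25.4, 23.3 and 32.6 TPM in the wild type, against 70.3, 61.4 and 73.3 TPM in the knockout. The groups were far apart for Anxa5, with a log2 fold change of 1.31 (SE 0.16, adjusted p = 0.000116).

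Anxa6 (ENSMUSG00000018340, chromosome 11 from 54979108 to 55033445, minus strand) has a duplicated core, with a longest annotated reading frame of 673 codons against 319 to 503 in the other members, and is a known modifier of muscular dystrophy in mice. It was the most abundant annexin of wild-type muscle, at 59.6, 53.6 and 60.5 TPM, and reached 115, 77.2 and 88.0 TPM in the knockout. The groups did not overlap, but the ratio of the means was 1.61, one of the smaller changes of the family. The log2 fold change of Anxa6 was 0.66 (SE 0.17, adjusted p = 0.0099). It was 0.27 after trimmed-mean rescaling (adjusted p = 0.091) and 0.45 when wild-type library 2 and knockout library 1 were both left out (adjusted p = 0.123), and it did not pass in either case.

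Anxa7 and Anxa11 have long amino-terminal arms, with longest reading frames of 485 and 503 codons, and both bind the calcium sensor encoded by Pdcd6. Anxa7 (ENSMUSG00000021814, chromosome 14 from 20455260 to 20480133, minus strand), also known as synexin and a partner of sorcin, read 21.9, 21.9 and 27.9 TPM in the wild type, against 65.4, 51.8 and 54.7 TPM in the knockout (log2 fold change 1.23, SE 0.16, adjusted p = 0.000157). Anxa11 (ENSMUSG00000021866, chromosome 14 from 25842156 to 25886804, plus strand), which tethers RNA granules to lysosomes, read 37.4, 40.5 and 42.0 TPM in the wild type, against 100.4, 57.3 and 77.2 TPM in the knockout (log2 fold change 0.92, SE 0.19, adjusted p = 0.0034). Neither gene overlapped between genotypes. Both resembled Anxa4 and Anxa6 in the order of their knockout libraries, with library 1 highest and library 2 lowest.

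Anxa3 (ENSMUSG00000029484, chromosome 5 from 96793339 to 96845966, plus strand), an annexin of endothelial cells and neutrophils, changed least of the 8. Its level was 28.0, 28.4 and 30.8 TPM in the wild type, against 36.3, 41.6 and 44.8 TPM in the knockout, groups that did not overlap. Its log2 fold change of 0.47 (SE 0.14, adjusted p = 0.022) was exceeded by 3558 of the 11056 genes tested and was close to the median of all genes, 0.33. The Anxa3 call was lost after trimmed-mean rescaling (log2 fold change 0.09, adjusted p = 0.65), after quantile normalization (0.19, adjusted p = 0.34), on a scale of nuclear genes alone (0.28, adjusted p = 0.12), and without wild-type library 1 (0.45, adjusted p = 0.087), wild-type library 2 (0.46, adjusted p = 0.082) or knockout library 3 (0.41, adjusted p = 0.11).

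Anxa8 (ENSMUSG00000021950, chromosome 14 from 34085981 to 34100571, plus strand), mainly an epithelial annexin, was barely present and was not tested on the deposited scale. Its level was 0.853, 0.865 and 0.811 TPM in the wild type, against 2.30, 1.35 and 0.875 TPM in the knockout. The lowest knockout library was almost level with the highest wild-type library, and only 2 libraries reached 1 TPM. With no filter on low values the log2 fold change of Anxa8 was 0.41 (adjusted p = 0.19). It was 0.188 without knockout library 1, 0.195 after trimmed-mean rescaling (adjusted p = 0.45), 0.15 with a pseudocount of 5 and 0.67 with one of 0.1. With Anxa8 included, the groups did not overlap on the deposited scale for any of the 9 annexins, with the knockout higher, where 48.7% of all genes tested had the knockout higher without overlap and 4.83% had it lower. For a single gene an exact permutation test of 3 against 3 cannot go below p = 0.1.

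**Figure D1:**
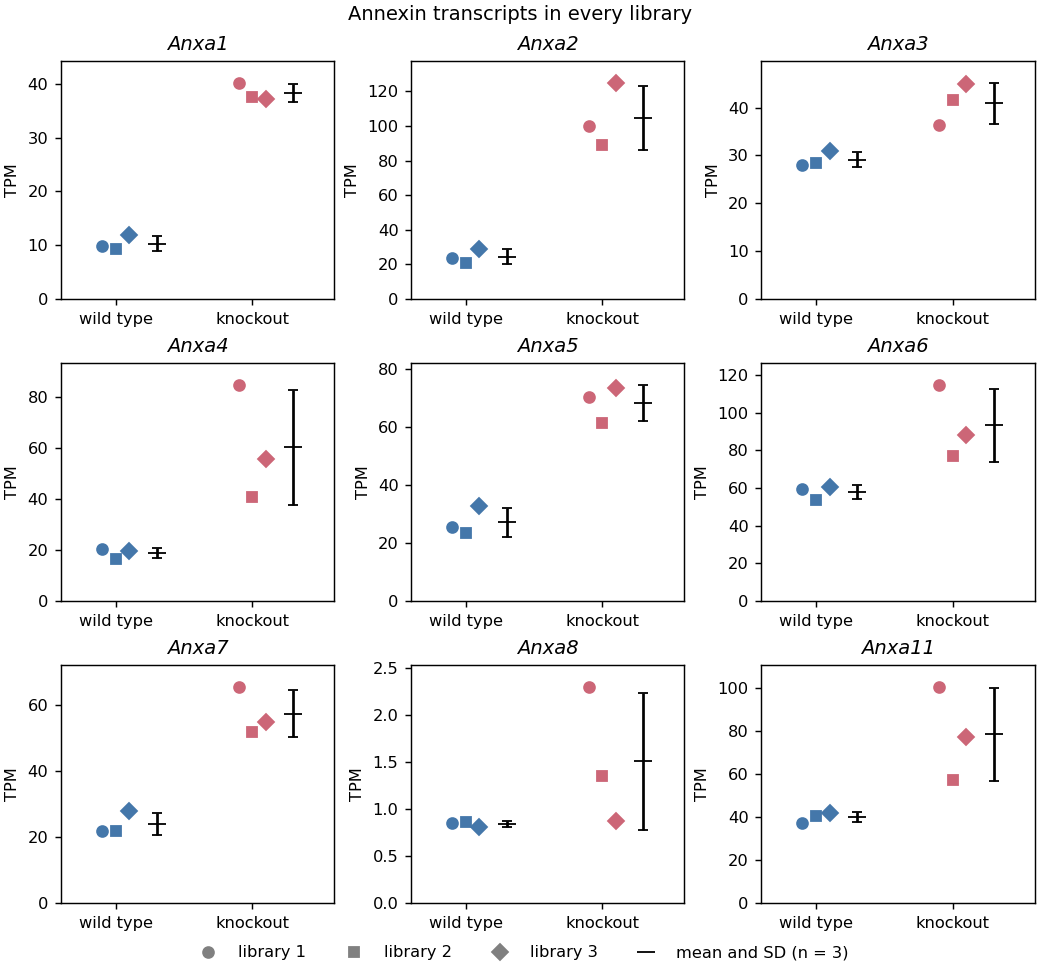
TPM (y axis, from 0, its own range in each panel) of the 9 annexins in the wild-type and knockout libraries, with 1 point per library (circle, square and diamond for libraries 1, 2 and 3) and the mean with SD (n = 3) beside them. Every knockout point lies above every wild-type point on the deposited scale, widely for Anxa2 and Anxa1, by a narrow gap for Anxa3 and hardly at all for Anxa8, and knockout library 1 stands high for Anxa4, Anxa6 and Anxa11.

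Within a genotype, most annexins were highest in the same library and lowest in the same library. In the knockout, library 1 was highest for 6 of the 9 annexins and library 2 lowest for 6, and in wild type, library 3 was highest for 7 and library 2 lowest for 6. Transcripts of the mitochondrial genome took 52.3, 51.1 and 43.0% of the TPM of the wild-type libraries, in order. They took 39.0, 45.7 and 42.2% of that of the knockout libraries. The library with the highest summed annexin level in each genotype was the one with the least mitochondrial RNA. Wild-type library 1, though, had more of both than wild-type library 2, and a cause was not tested. The summed annexin level was 227, 215 and 255 TPM in wild type and 614, 458 and 557 TPM in the knockout, a ratio of the means of 2.34. After trimmed-mean rescaling the 3 wild-type sums lay between 263 and 269 and the 3 knockout sums between 437 and 491, a ratio of 1.77, and on the scale of nuclear genes alone the ratio was 2.02. The groups of summed values did not overlap on any of these 3 scales.

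**Figure D2:**
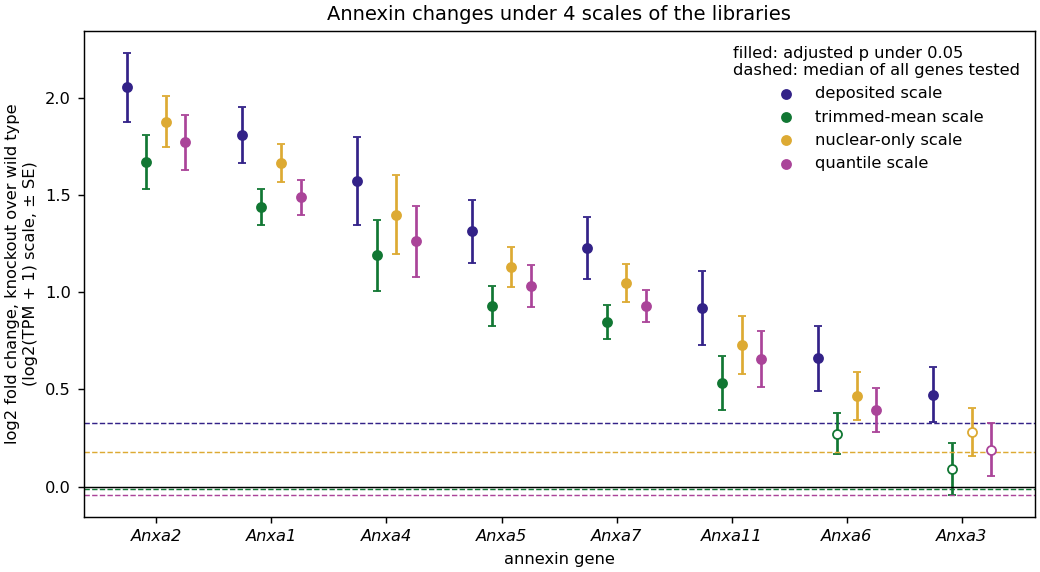
Log2 fold change (knockout over wild type, on the log2(TPM + 1) scale, bars ± SE) of the 8 annexins tested on the deposited scale, shown on 4 scales of the libraries, with filled points for an adjusted p under 0.05, open points for the rest, and dashed lines at the median of all genes tested on each scale. The order from Anxa2 (2.05 on the deposited scale) down to Anxa3 (0.47) is the same on all 4 scales, Anxa3 is filled on the deposited scale alone, and Anxa6 is open after trimmed-mean rescaling.

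The order of the annexins by level is given next for each genotype. In wild type the order of levels ran from Anxa6 (57.9 ± 3.73 TPM) and Anxa11 (39.96 ± 2.35 TPM), each clear of the next, through Anxa3, Anxa5, Anxa2 and Anxa7, whose neighbours in the order overlapped, to Anxa4, Anxa1 and Anxa8, each again separate. In the knockout Anxa2 (105 ± 18.5 TPM) led, above Anxa6 (93.3 ± 19.3 TPM) in 2 of 3 libraries. The values of Anxa6, Anxa11, Anxa5, Anxa4 and Anxa7 then overlapped from neighbour to neighbour. Anxa3 lay below Anxa7 without overlap, and Anxa3 and Anxa1 overlapped each other.

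As a share of the summed annexin TPM, which does not depend on the scale of a library, Anxa2 took 10.4, 9.64 and 11.4% in wild-type libraries and 16.3, 19.5 and 22.5% in knockout libraries. Anxa6 took 26.3, 24.9 and 23.7% in wild type and 18.7, 16.9 and 15.8% in the knockout. The shares of Anxa2 and Anxa6 thus moved in opposite directions, by 8.92 and -7.85 percentage points, without overlap between genotypes. Anxa1 went from 4.41 ± 0.187 to 7.14 ± 0.928% and Anxa3 from 12.5 ± 0.580 to 7.68 ± 1.62% (SD, n = 3 each), and Anxa11 from 17.3 ± 1.36 to 14.2 ± 1.94%. The shares of Anxa1, Anxa2, Anxa3, Anxa6 and Anxa11 each gave p = 0.1 in a two-sided exact permutation test, the smallest that 3 against 3 allows, and an adjusted p = 0.18 over the 9 shares, so none passed. The share of Anxa7 was 10.3 ± 0.638% in wild type and 10.6 ± 0.746% in the knockout (exact permutation p = 0.6), with overlapping values.

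**Figure D3:**
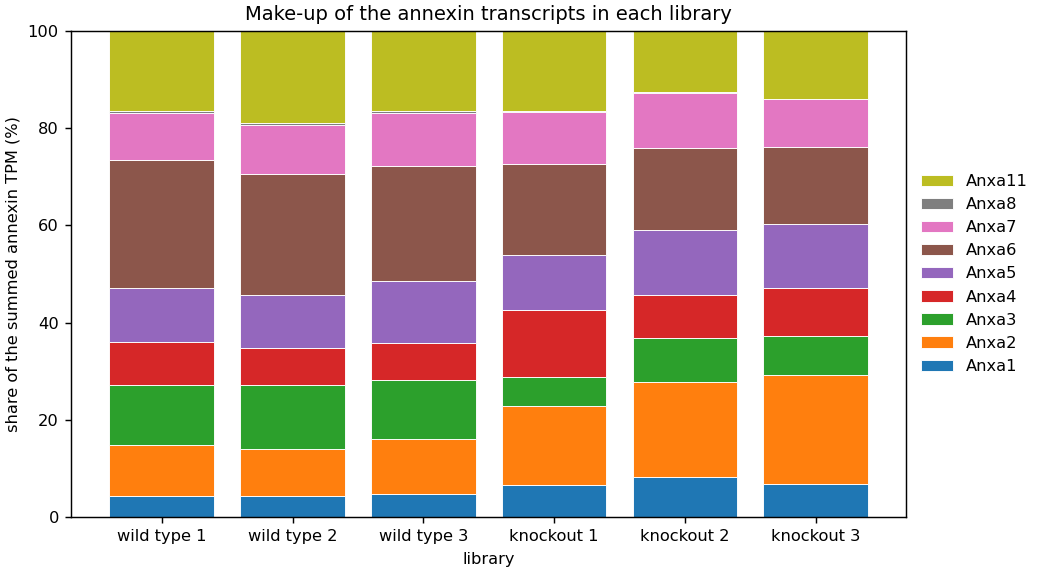
Share of the summed annexin TPM (%, y axis) taken by each of the 9 annexins in each of the 6 libraries (x axis), as stacked bars that reach 100%. The Anxa2 band widens from at most 11.4% in wild type to at least 16.3% in the knockout while the Anxa6 band narrows from at least 23.7% to at most 18.7%, and Anxa8 is too small to see.

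The partners of the annexins were examined as a list of 14 genes for proteins that bind an annexin or share its complexes. Of these, 10 passed the filter, and 7 of the 10 were higher in the knockout and none lower, on a background of 36.3% higher and 2.92% lower, with a median log2 fold change of 1.32. After trimmed-mean rescaling 7 were higher and 2 lower, where all genes gave 14.3% higher and 13.3% lower. S100 proteins, small dimers that dock on the amino-terminal arm of annexins, led the list. S100a10, the partner of Anxa2, read 25.8, 30.8 and 45.0 TPM in the wild type, against 151, 126 and 171 TPM in the knockout (log2 fold change 2.13, SE 0.20, adjusted p = 2.11e-05). The ratio of Anxa2 to S100a10 was 0.911, 0.674 and 0.648 in wild-type libraries and 0.664, 0.710 and 0.732 in knockout libraries, with overlapping values (two-sided exact permutation p = 0.9, adjusted p = 0.9 over 3 ratios). For comparison, the ratio of Anxa2 to Anxa6 was 0.395, 0.387 and 0.482 in wild type and 0.871, 1.15 and 1.42 in the knockout, without overlap (exact permutation p = 0.1, adjusted p = 0.3).

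S100a6, which binds Anxa2 and Anxa11, read 64.4, 67.7 and 75.6 TPM in the wild type, against 408, 379 and 485 TPM in the knockout (log2 fold change 2.59, adjusted p = 1.38e-06). S100a4, a marker of fibroblasts and macrophages that binds Anxa2, rose from 13.0 ± 1.49 to 96.1 ± 9.86 TPM (log2 fold change 2.79, adjusted p = 1.15e-06). Neither S100 transcript overlapped between genotypes, and both log2 fold changes were above that of Anxa2, a difference that was not tested. Ahnak, a giant scaffold protein recruited to the membrane by the Anxa2 and S100a10 complex, rose from 15.8 ± 2.26 to 56.7 ± 10.1 TPM (log2 fold change 1.77, adjusted p = 2.32e-05).

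S100a11, the partner of Anxa1, was named after its values were seen, because of that pairing. It rose from 35.8 ± 9.11 to 108 ± 18.6 TPM (log2 fold change 1.58, adjusted p = 0.000138). The ratio of Anxa1 to S100a11 was 0.273, 0.346 and 0.264 in wild type and 0.445, 0.354 and 0.291 in the knockout, with overlapping values (exact permutation p = 0.2, adjusted p = 0.3).

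The 3 tested partners that did not pass were S100a1, Pdcd6 and Plgrkt, also named after their values were seen. S100a1, the S100 protein of muscle fibres, averaged 279 ± 47.7 TPM in the wild type against 275 ± 12.3 TPM in the knockout (log2 fold change -0.01, adjusted p = 0.97). Pdcd6, the calcium sensor that binds Anxa7 and Anxa11, read 27.0, 30.5 and 38.3 TPM in the wild type, against 23.7, 25.6 and 22.5 TPM in the knockout (log2 fold change -0.39, adjusted p = 0.071). These were the 2 partners that were lower after trimmed-mean rescaling, with log2 fold changes of -0.40 for S100a1 (adjusted p = 0.04997) and -0.76 for Pdcd6 (adjusted p = 0.0033). The plasminogen receptor gene Plgrkt stood at 19.1 ± 3.38 and 25.4 ± 2.08 TPM (log2 fold change 0.40, adjusted p = 0.065). The receptors of Anxa1 were at the edge of detection: Fpr2 had no value above 0 in any wild-type library and held 0.886, 0.174 and 0.305 TPM in the knockout libraries, and Fpr1 had one in knockout library 1 alone (0.238 TPM). A gene missing from a library's list was counted as 0.

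**Figure D4:**
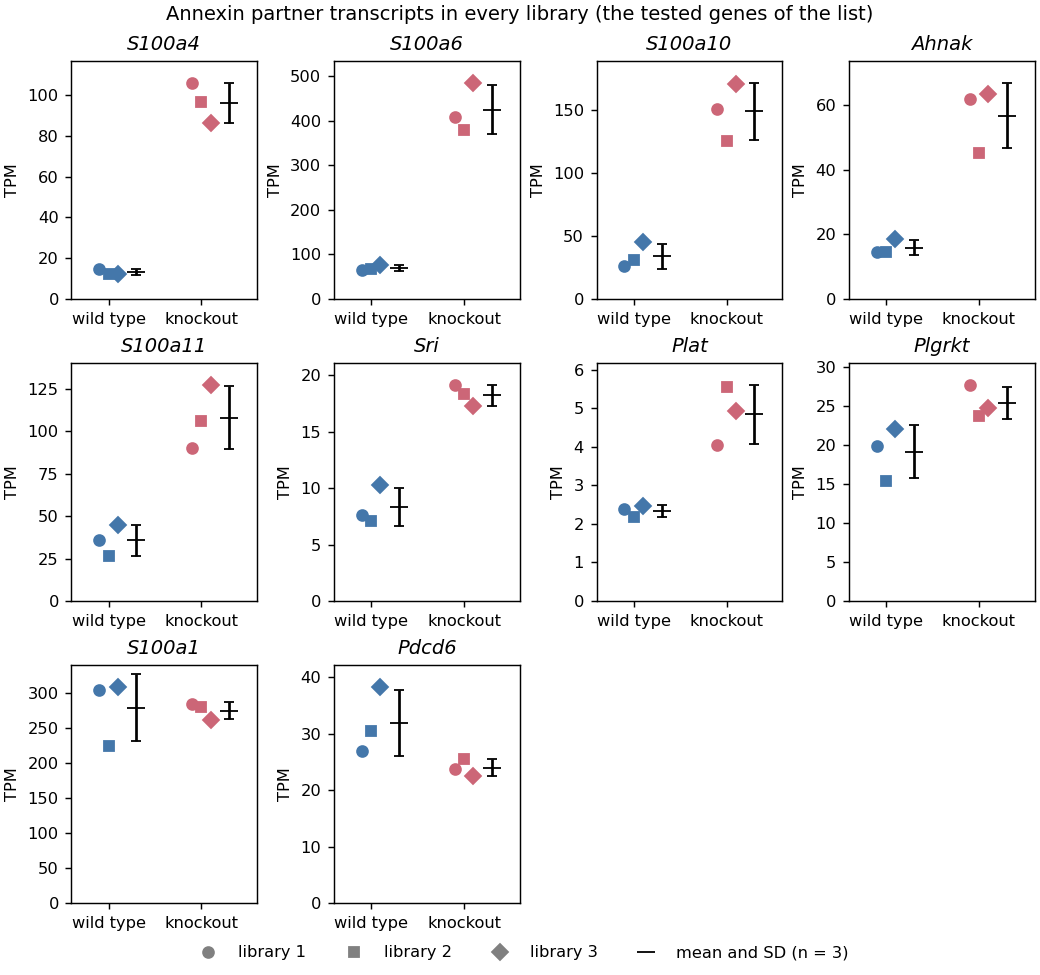
TPM (y axis, from 0, its own range in each panel) of the 10 tested partner genes in the wild-type and knockout libraries, ordered by log2 fold change, with 1 point per library and the mean with SD (n = 3). S100a4, S100a6, S100a10 and Ahnak are widely separated between genotypes on the deposited scale, S100a1 overlaps, and Pdcd6 is lower in all 3 knockout libraries.

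Proteins that work with annexins at a membrane wound were examined as a list of 17 genes, all of them tested. Of these, 12 were higher and none lower, where 36.3% of all genes tested were higher and 2.92% lower, and the median log2 fold change was 0.67, beside 0.33 for all genes. After trimmed-mean rescaling 6 were higher and 3 lower, where all genes gave 14.3% and 13.3%, and when wild-type library 2 and knockout library 1 were both left out the list had 7 higher genes. Myof, the ferlin of myoblast fusion, rose from 2.44 ± 0.531 to 10.5 ± 0.399 TPM (log2 fold change 1.76, adjusted p = 1.06e-05). The membrane-remodelling ATPases Ehd2 and Ehd1 and the muscle caveolin Cav3 had log2 fold changes of 1.23, 1.20 and 1.22. The 5 genes that did not pass were named after their values were seen. They were the dysferlin gene Dysf (log2 fold change 0.32, limma adjusted p = 0.18), Syt7 (0.27), Smpd1 (-0.15), Capn3 (-0.18) and Pdcd6 (-0.39). The 3 lower after trimmed-mean rescaling were Pdcd6 (-0.76), Capn3 (-0.56) and Smpd1 (-0.52), and Dysf stood at -0.05 there.

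Of the other annexin genes looked for, Anxa9 and Anxa10 were nearly silent and Anxa13 had no value. Anxa9 ranged from 0.074 to 0.136 TPM in the wild type and from 0.209 to 0.792 TPM in the knockout, always under the filter. Anxa10 was listed at 0 in wild-type library 3 and in no other library. Anxa13 was in no library's list, so the level of Anxa13 is unknown.

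For the 3 annexins with the highest mean level, the genes with the most similar pattern over the 6 libraries were found by the Pearson correlation of log2(TPM + 1). For Anxa6 they were Gpc1 (r = 0.999), Fbxl2 (0.998) and Atp9a (0.998), for Anxa2 Ifih1, Tcn2 and Rras (r from 0.99896 to 0.99959), and for Anxa11 Scn2a, Fhl1 and Ubap2l (all 0.998). These libraries form 2 genotypes, so the correlations mostly record a shared difference between genotypes and shared library scale: 11.5% of the genes compared had r above 0.95 with Anxa6, 13.2% with Anxa2 and 10.1% with Anxa11.

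Markers of several other cell types that contain annexins were also higher in the knockout, and their counts stand beside 36.3% higher and 2.92% lower among all genes tested. All 14 macrophage markers were higher. Their summed level went from 44.3 to 53.7 TPM over the wild-type libraries to 220 to 271 TPM over the knockout libraries. The ratio of the means was 5.05. For 3 of these markers, Adgre1, Aif1 and Cd14, only the knockout values were high enough for the filter. Genes admitted that way could hardly have been called lower, so their calls add little to the count. All 12 markers of fibro-adipogenic cells and fibroblasts were higher, from 462 to 492 TPM to 1301 to 1362 TPM, a ratio of 2.78, beside 2.34 for the annexins. Of 10 endothelial markers 8 were higher and 1 lower, and their sum went from 163 to 187 TPM to 287 to 339.5 TPM. The lower one was Kdr, at 11.9, 8.20 and 10.1 TPM in the wild type against 4.25, 5.63 and 3.74 TPM in the knockout. Of 6 tested satellite cell markers Cdh15, Chodl, Myod1, Myog and Vcam1 were higher, Vcam1 being admitted by the filter through its knockout values alone. Myf5 did not pass (log2 fold change -0.002, limma adjusted p = 0.99). Pax7 was not tested, with means of 0.41 TPM in the wild type and 0.56 TPM in the knockout. The summed list went from 12.8 to 15.2 TPM to 32.0 to 46.1 TPM. The largest rises in mean were those of Myod1 (1.59 to 11.1 TPM), Vcam1 (0.61 to 7.06 TPM) and Myog (1.43 to 6.83 TPM).

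The granulocyte and mast cell list was low, at 2.70 to 5.61 TPM against 19.6 to 45.5 TPM. Of its tested genes, 6 of 6 were higher, and Elane was above 0 in no library. The lymphocyte list was at 0.865 to 0.941 TPM against 1.95 to 3.43 TPM, with its 1 tested gene, Ptprc, higher. Ptprc, Cpa3 and S100a8 were admitted by the filter through knockout values alone, so they could hardly have been called lower. Of 6 tested tendon markers, Scx and Thbs4 were higher and Chad lower (summed list 53.8 to 87.3 TPM against 142 to 212 TPM). Tnmd (log2 fold change -0.53), Comp (-0.14) and Fmod (0.09) did not pass, and the median of the 6 was -0.03. Most of the rise in the sum came from Thbs4, with means of 21.6 TPM in the wild type and 104 TPM in the knockout. Of 8 smooth muscle and pericyte markers, Cspg4 and Pdgfrb were higher (summed list 176 to 187 TPM against 212 to 225 TPM). None of 6 adipocyte and 4 Schwann cell markers tested passed, with sums of 405 to 526 TPM against 537 to 598 TPM and at 42.5 to 50.1 TPM against 46.9 to 58.0 TPM. Markers of the muscle fibre itself were present at 47106 to 52436 TPM in the wild type, against 51343 to 60593 TPM in the knockout. Des and Myh4 were higher among 12, and the ratio of the mean sums was 1.12. That ratio was 6.38 for the granulocyte and mast cell list, 2.90 for lymphocyte, 2.86 for satellite cell and 2.54 for tendon markers. It was 1.79 for endothelial, 1.20 for adipocyte, 1.19 for smooth muscle and pericyte and 1.12 for Schwann cell markers. The ratio of 6.38 leaned on knockout library 1, where S100a8 and S100a9 read 13.2 and 22.7 TPM. They read 1.33 and 2.48 TPM in knockout library 2 and 2.94 and 4.02 TPM in knockout library 3. The single markers named here and in the opening were named after their values were seen. After trimmed-mean rescaling, where all genes gave 14.3% higher and 13.3% lower, all 14 macrophage and 10 of the 12 fibroblast markers were still higher, with 7 endothelial markers higher and 2 lower, 3 satellite cell markers higher, 1 fibre marker higher and 1 lower, and 2 Schwann cell markers lower. The part of these cell types in the annexin result was not tested.

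**Figure D5:**
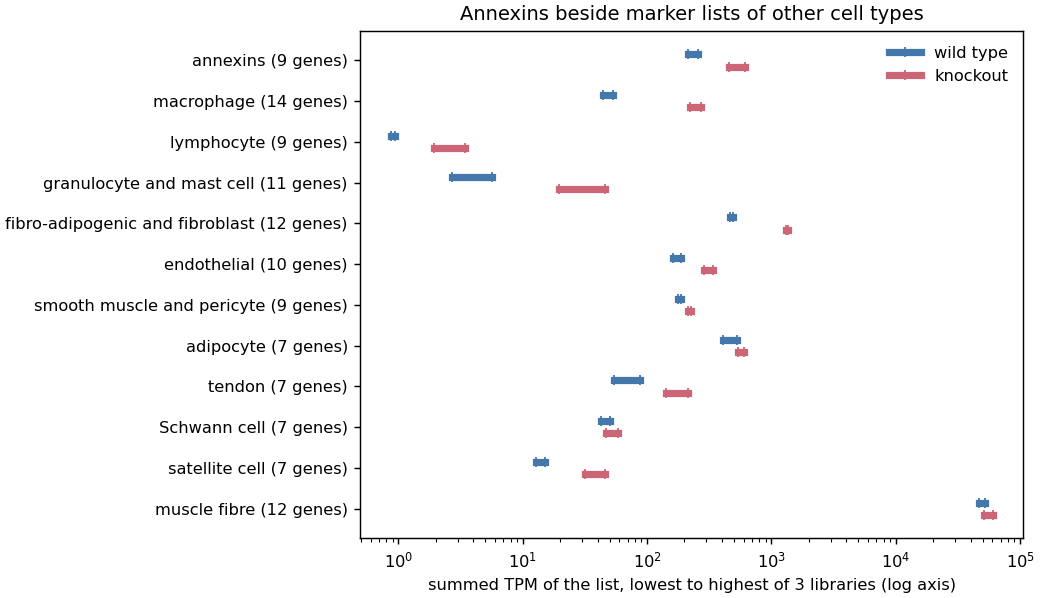
Summed TPM (log x axis) of the 9 annexins and of each marker list (y axis, number of genes in parentheses), drawn as the range from the lowest to the highest of 3 wild-type or 3 knockout libraries. The annexin ranges, 215 to 255 and 458 to 614 TPM on the deposited scale, lie apart. So do those of every marker list except the Schwann cell and muscle fibre lists, whose ranges overlap.

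The labelled knockout was checked by Cavin1, the targeted gene, which ranged from 39.96 to 45.2 TPM in wild-type libraries and from 0.0254 to 0.284 TPM in knockout libraries. The libraries summed to 843194 to 872482 TPM and had 10227 to 11298 genes at 1 TPM or more, and their depth of sequencing is unknown, so no counting interval is given.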

How the data were processed

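Per the labels' protocols, RNA was extracted with TRIzol and prepared for sequencing with a NEBNext Ultra kit. The submitters' processing notes list STAR (2.5.3a), kallisto (0.43.0), GRCm38 and mm10, with no step given for each. The values the authors deposited were read as TPM from the values alone, since no header names a unit. TPM keeps no read depth, and as a share it moves when abundant transcripts change. The counting of reads shared between related genes is not given in the sources used here.

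Soleus files were used, after checking that the quadriceps files repeat them, and genes missing from a file were set to 0. Every gene that reached 1 TPM in 3 or more of the 6 libraries entered a test of log2(TPM + 1) by limma 3.58.1 (R 4.3.3, intensity trend, 4 residual degrees of freedom, two-sided), adjusted over all genes tested by Benjamini-Hochberg at 0.05. The procedure was also run on simulated data in which few genes changed, evenly up and down, with no shift of library scale. The real libraries differ in these respects, so that run does not check the calls reported here. Trimmed-mean rescaling trimmed 30% of ratios and 5% of levels. Alternatives were no trend, quantile, trimmed-mean and nuclear-only scales, a filter of 10 TPM or none, a pseudocount of 0.1 or 5, a replicate block, a log2 fold change of at least 1, each library left out, and wild-type library 2 with knockout library 1 left out. The members and all gene lists were chosen with earlier results of these data known. Named genes were all members, the 4 genes of each of the partner and repair lists with the smallest adjusted p among those passing, and for the 3 most abundant members the 3 most correlated genes. Positions are from GENCODE release M21 and promoters from RefSeq. Python 3.11.15, pandas 2.3.3 and matplotlib 3.10.9 were used.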

Additional observations from a re-analysis of the deposited data

How the results depend on the processing

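Anxa1, Anxa2, Anxa4, Anxa5 and Anxa7 kept their direction and passed under all 17 alternatives tried, and Anxa11 under all but the demand for a log2 fold change of at least 1, which its 0.92 misses by construction, as do 0.66 for Anxa6 and 0.47 for Anxa3. That demand left 5 annexins, 5 repair genes and 912 of all genes. Anxa3 did not pass at 0.092 after trimmed-mean rescaling, 0.19 after quantile normalization, 0.28 with nuclear genes only and 0.54 when wild-type library 2 and knockout library 1 were both left out, and its log2 fold change ran from 0.41 to 0.55 with each library left out. Anxa6 did not pass at 0.27 after trimmed-mean rescaling and 0.45 with both those libraries left out. No annexin changed direction, and the cause of these losses was not tested. The summed annexin ratio was 1.77 after trimmed-mean rescaling. Without both those libraries 7 repair genes and 1886 of all genes passed. Of all genes, 4339 passed in the comparison as reported, 2823 after quantile normalization (1373 higher and 1450 lower, against 4016 and 323 as reported), 1839 with the 10 TPM filter, and 2648 (without knockout library 1) to 4458 with each library left out, with 2784 without wild-type library 2 and 2724 after leaving out knockout library 3. With each library left out, 7 or 8 annexins passed.

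With the replicate number as a block 8 annexins passed, as without it, and 4373 of all genes. Libraries with the same number did not deviate together (correlations of 0.028, -0.0081 and 0.037), so the numbers were not taken as pairs. The depth behind TPM is unknown, which matters most for Anxa8, Anxa9 and the formyl peptide receptor genes, all near or under 1 TPM.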

Other observations

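The genes next to the annexins on their chromosomes were also examined, a comparison chosen after the data were seen. Taking the nearest tested gene on each side of each of the 9 annexins gave 18 genes, none of them an annexin. Of these, 6 (33.3%) were higher in the knockout and none lower (limma, adjusted p under 0.05), close to the 36.3% of all genes tested that were higher, and their median log2 fold change was 0.31, beside 0.33 for all genes and 1.27 for the 8 tested annexins. The 6 were both neighbours of Anxa4, Gmcl1 (log2 fold change 0.49) and Aak1 (0.63), both of Anxa6, Tnip1 (0.66) and Gm2a (0.91), Shld2 (0.68) beside Anxa8 and Zcchc24 (1.21) beside Anxa11. The values for Gm2a and Zcchc24 were above those of the annexins beside them, 0.66 for Anxa6 and 0.92 for Anxa11, differences that were not tested. Both neighbours of Anxa2, Ice2 (log2 fold change 0.20) and Bnip2 (0.13), and both neighbours of Anxa5, Acad9 (0.28) and Exosc9 (0.10), did not pass. Anxa7, Anxa8 and Anxa11 lie on the same chromosome, 14, but none was the nearest tested neighbour of another.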
